A study of Homo sapiens with 18 samples.

Results

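The 36 genes described here are NF-kB target genes, chemokines and other inflammatory genes, measured in a pair of human prostate cancer cell lines after RNA interference against Stat3 or Stat5a/b. They were taken from a list of names. Each was represented by its probe set with 1 gene symbol and, where there were several, by the one with the highest mean over all 18 arrays. All 36 listed genes were found, among 19775 genes with such a probe set. The 6 groups, of 3 arrays each, were CWR22Rv1 cells with Stat5a/b siRNA, with Stat3 siRNA or with scramble siRNA as the control, and DU145 cells with the same 3 kinds of siRNA. All cells, controls included, had been transfected with the lipid reagent Lipofectamine 2000 and were harvested 48 h later. DU145 and CWR22Rv1 are established lines, so the results describe 1 line each. DU145 grows without androgen and came from a metastasis, and CWR22Rv1 came from a relapsed prostate xenograft. Each group is a triplicate with unpooled RNA according to the labels, which leave unsaid whether the 3 were grown as separate cultures. The p-values thus reflect only how these samples vary within a group, and that variation may be technical. Values are log2 expression values, in which a difference of 1 is a doubling.

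NF-kB is a family of dimeric transcription factors built from the products of RELA, RELB, REL, NFKB1 and NFKB2. In resting cells IkB proteins hold most dimers in the cytoplasm. Signals from TNF, interleukin-1 and Toll-like receptors activate IkB kinases, IkB is degraded, and the freed dimers induce chemokines, cytokines, survival factors and their own inhibitors. Stat3 and Stat5a/b are latent transcription factors of cytokine and growth factor signalling, and Stat3 shares several target promoters with NF-kB. Androgen-independent prostate cancer lines such as DU145 are known for constitutive NF-kB activity and secretion of chemokines.

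The promoters of several of these genes carry a near-identical NF-kB motif, and the stretches that hold it are shown for the gene with the largest rise, for the chemokines of the CXC cluster on chromosome 4 and for the gene of IkBα. The sequences come from RefSeq, assembly GRCh38.p14, run 5′ to 3′ on the gene's own strand and cover bases 130 to 31 before the gene start. Capitals mark a match to the NF-kB consensus or to GGAATTTCC.
TNFRSF9, chr1:7940870-7940969, minus strand: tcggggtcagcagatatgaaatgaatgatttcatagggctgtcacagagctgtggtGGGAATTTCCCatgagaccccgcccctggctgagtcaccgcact
CXCL8, chr4:73740439-73740538, plus strand: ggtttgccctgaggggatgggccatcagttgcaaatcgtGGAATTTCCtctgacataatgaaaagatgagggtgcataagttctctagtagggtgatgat
CXCL1, chr4:73869263-73869362, plus strand: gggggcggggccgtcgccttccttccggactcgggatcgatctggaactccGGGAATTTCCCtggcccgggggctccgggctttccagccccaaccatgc
CXCL2, chr4:74099226-74099325, minus strand: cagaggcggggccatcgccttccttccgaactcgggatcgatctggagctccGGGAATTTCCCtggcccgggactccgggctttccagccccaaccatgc
CXCL3, chr4:74038720-74038819, minus strand: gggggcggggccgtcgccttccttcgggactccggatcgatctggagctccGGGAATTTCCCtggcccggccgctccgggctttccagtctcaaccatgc
CXCL5, chr4:73998708-73998807, minus strand: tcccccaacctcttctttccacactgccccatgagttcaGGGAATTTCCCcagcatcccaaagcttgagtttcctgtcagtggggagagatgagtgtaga
NFKBIA, chr14:35404780-35404879, minus strand: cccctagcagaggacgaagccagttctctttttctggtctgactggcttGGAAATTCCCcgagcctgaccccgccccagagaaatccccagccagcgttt

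The same motifs were searched on both strands of the promoter, from 250 bases before to 50 after the gene start, for the 31 of the 36 genes that had an entry. NFKBIE, RELB, IER3, LIF and CCL2 had none. The NF-kB consensus of 10 letters matched in 16 of 31 promoters (51.6%), against 10.8% of all 27305 promoters. GGAATTTCC matched in 11 of 31 (35.5%), against 0.472% of all promoters. These motifs overlap, and 9 promoters held both. TTCNNNGAA, the letters of a STAT motif, matched in 7 of 31 (22.6%), against 7.88% of all promoters. It was found for TNFRSF9, BCL2A1, CXCL5, LTB, ICAM1, IL1B and IRF1. A match is a description, not a binding site or a cause. The list is named for NF-kB targets, so these shares are not independent of it. Among the genes that rose with Stat3 siRNA in DU145 cells, 7 of 12 promoters (58.3%) held the NF-kB consensus and 3 of 12 (25%) TTCNNNGAA, against 9 of 19 (47.4%) and 4 of 19 (21.1%) of the other promoters.

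The siRNAs lowered their targets. With Stat3 siRNA, STAT3 fell to 45.7% of scramble in CWR22Rv1 cells and to 32.6% in DU145 cells. With Stat5a/b siRNA, STAT5B fell to 53.4% of scramble in CWR22Rv1 cells and to 39.1% in DU145 cells. STAT5A, which was at a low level, was at 78.7% (CWR22Rv1, limma adjusted p = 0.146) and 81.1% (DU145, adjusted p = 0.101) of scramble with Stat5a/b siRNA. Arrays of 1 group correlated at 0.993 to 0.998 over probe sets, which are not independent. The epithelial markers KRT8, EPCAM and CDH1 were expressed in every group, at group means of 8.92 or more, whereas the prostate genes KLK2 and HOXB13 were at 9.35 or more in the CWR22Rv1 groups and at 4.79 or less in the DU145 groups. The probe set of KLK3, the gene of prostate-specific antigen, did not separate the lines, at group means of 6.60 to 6.84 in CWR22Rv1 and 6.66 to 6.87 in DU145. Markers of other cells the cultures could hold were mostly dim: 7 of 8 leukocyte, 7 of 8 fibroblast and 6 of 6 endothelial markers stayed below 6.37, the median level over genes, in every group. In bulk samples such as these, fewer cells of a type and less RNA per cell cannot be told apart.

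The third DU145 arrays stood apart for these genes. In each DU145 group, 13 of the 36 genes (36.1%) were highest on the replicate 3 array, against 9.28% of all genes, among them BCL2A1, CXCL8, CXCL1, CXCL2, CXCL3, IER3 and TNFAIP3. The mean deviation of the 36 genes from the mean of the DU145 scramble arrays was -0.05, -0.09 and 0.23 on the Stat5a/b siRNA arrays, 0.36, 0.28 and 0.48 on the Stat3 siRNA arrays, and -0.09, -0.02 and 0.12 on the scramble arrays. All 3 Stat3 siRNA arrays thus lay above all other DU145 arrays, and the third array was the highest of each group. Counts of the 36 genes in siRNA comparisons that use DU145 arrays were repeated without the third arrays of all DU145 groups. The heat map of all 36 genes shows both features.

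**Figure D1:**
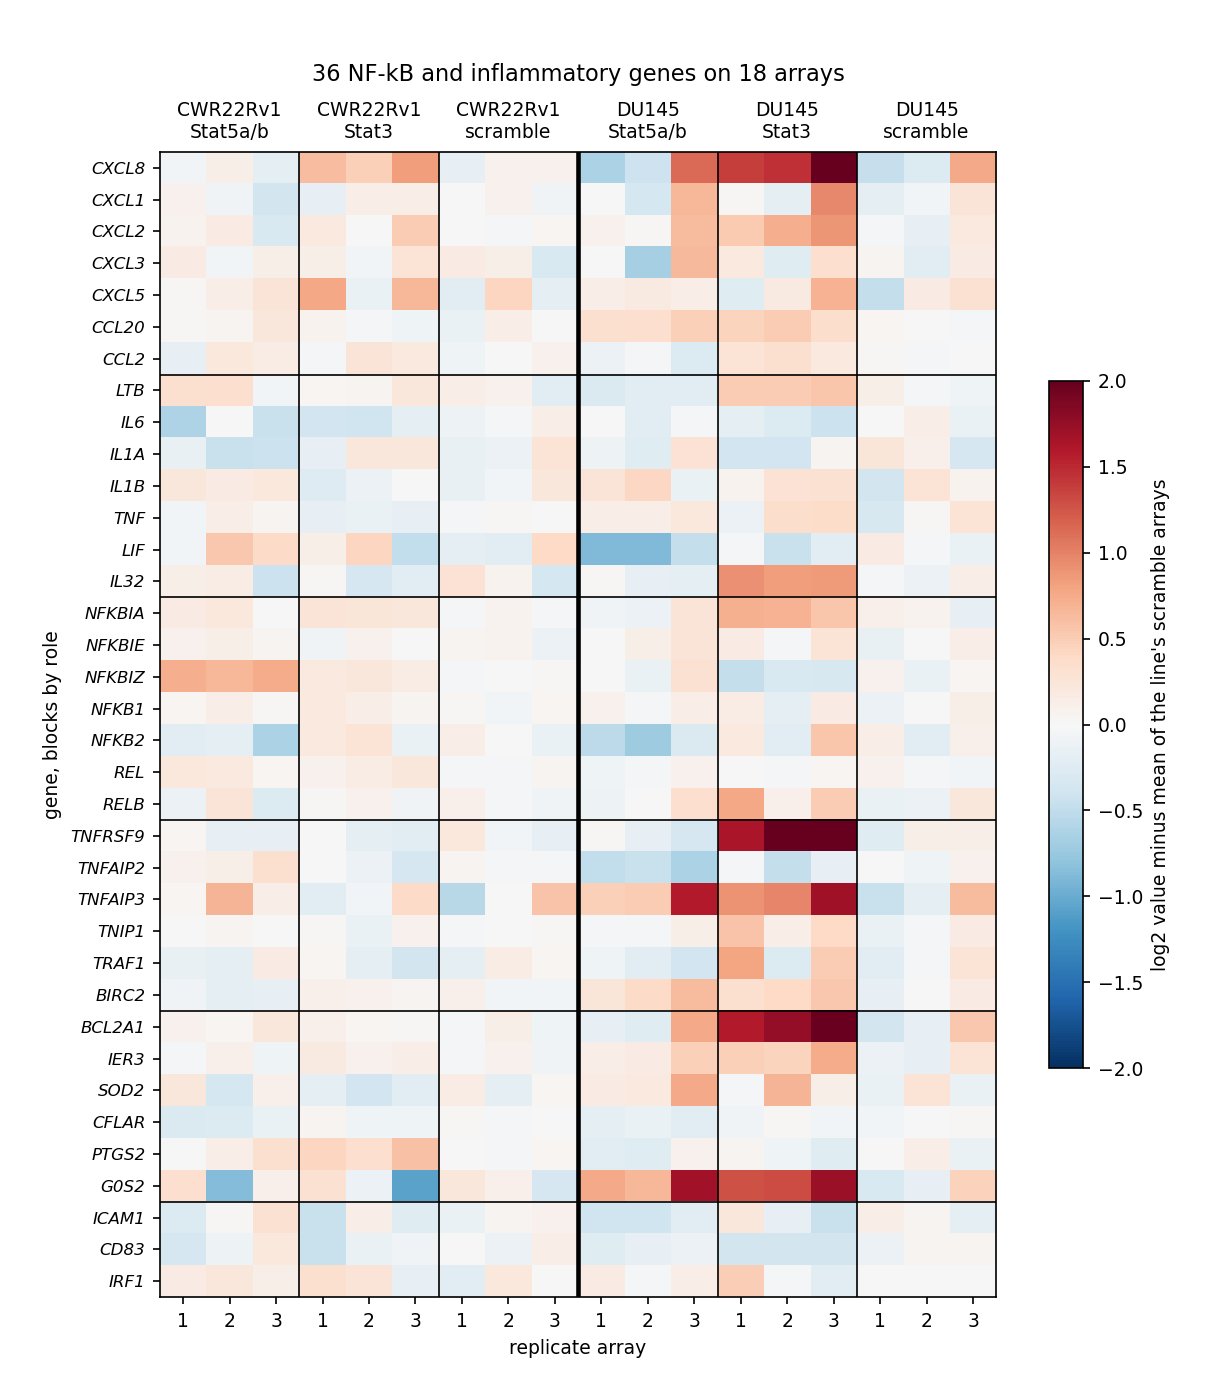
Each cell is the log2 value of 1 gene (rows, in blocks by role) on 1 array (columns), minus the mean of the scramble arrays of the same line; red is higher and blue lower, with colours cut at 2 and -2. The CWR22Rv1 groups are on the left and the DU145 groups on the right, each in the order Stat5a/b siRNA, Stat3 siRNA, scramble. The red cells gather in the DU145 Stat3 siRNA columns, led by TNFRSF9 (log2 change 1.99), BCL2A1 (1.77) and CXCL8 (1.65).

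Stat3 siRNA raised many of these genes in DU145 cells. Of the 36, 13 rose and 2 fell relative to scramble at a limma adjusted p under 0.05, which is 41.7% called where 15.8% of all genes tested were called. The share of all genes that rose was 7.51% and the share that fell was 8.25%. Dim genes are seldom called: without them 15 of 28 were called (53.6%), against 31.9% of the genes left. The median log2 change over the 36 genes was 0.24, against 0.0056 over all genes, and 27 of the 36 had a change above 0. For 16 of the 36 the arrays of the 2 groups did not overlap, against 26.2% of all genes. With the DU145 arrays fitted alone, whose spread was larger, 10 of the 36 were called (27.8%), against 7.83% of all genes. The count depends on the kind of probe set: 11 of the 15 called genes were measured by sets of a type that can also hybridise with related transcripts, and without such sets 4 of the 26 genes still measured rose and none fell (15.4%, against 13.2% of all genes). CXCL8, IER3, NFKBIZ, TNFAIP3, G0S2 and IL32 had no set of another type and dropped out. Others were then read on dimmer sets, such as NFKBIA (mean level 4.67, against 10.53) and CXCL2 (3.94, against 6.40). Whether related transcripts contribute was not tested. With the replicate number as a block, 15 rose and 2 fell, CCL2 (adjusted p = 0.0164) and RELB (0.042) being added, where 18.4% of all genes were called. Without the third DU145 arrays 13 rose and 2 fell, with CD83 lost (0.182) and IL1A called lower (-0.55, 0.0362), where 14.6% of all genes were called. Beside these changes the epithelial marker CDH1 fell by 0.98 and EPCAM by 0.49 in the same arrays, and the monocyte marker CD14, dim in all groups, fell by 1.09. No other leukocyte marker moved as far. LYZ, ITGAM, CD79A and CD3E had higher group means than scramble, and PTPRC, FCER1G and TYROBP lower ones. Of the other epithelial and prostate markers KRT8, KRT18, KRT19 and KLK3 had lower group means than scramble, and KLK2 and HOXB13 higher ones. The summed linear level of the 8 leukocyte markers was 256 to 308 with Stat3 siRNA and 287 to 342 with scramble, and that of 8 epithelial and prostate markers 14400 to 15600 and 16900 to 18000. No defining marker was listed at 0. Their part in the result was not tested.

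Among the 7 chemokines, 3 rose with Stat3 siRNA in DU145 cells and none fell. CXCL8 (interleukin-8), which attracts neutrophils, was at 9.10, 9.17 and 9.83 with Stat3 siRNA, against 7.25, 7.43 and 8.46 with scramble. The arrays did not overlap, although the third scramble array lay about 1 unit above the other two. The log2 change was 1.65 ± 0.37 (SE of the fit, 3 arrays against 3), a rise of 3.15-fold, with a limma adjusted p of 0.00526. A second CXCL8 probe set gave 1.69. With the DU145 arrays fitted alone the adjusted p was 0.051. CXCL2, another neutrophil attractant, was at 9.63, 9.84 and 10.0 with Stat3 siRNA, against 9.07, 8.95 and 9.31 with scramble, without overlap, for a log2 change of 0.71 ± 0.17 (adjusted p = 0.00715). The probe sets used for both are of a type that can hybridise with related transcripts, and a dimmer CXCL2 probe set of the specific type gave 0.17 (adjusted p = 0.667). CCL20, which attracts cells bearing CCR6, was dim, at 3.72, 3.77 and 3.62 with Stat3 siRNA, against 3.31, 3.27 and 3.24 with scramble, a change of 0.43 ± 0.077 (adjusted p = 0.00101). The groups were tight and separate, but how far these values lie above background is unknown. CXCL1, CXCL3 and CXCL5, of the same cluster and with the same promoter motif as CXCL2, had changes of 0.26, 0.10 and 0.21, none of which passed the test. The monocyte attractant CCL2 had 0.27 (adjusted p = 0.0688) without overlap of the arrays.

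Among the 7 cytokines, 2 rose. IL32, a proinflammatory cytokine, was at 9.08, 8.99 and 9.01 with Stat3 siRNA, against 8.13, 8.05 and 8.29 with scramble. Both groups were tight and lay far apart, and the log2 change was 0.87 ± 0.16 (adjusted p = 0.00112). LTB, the lymphotoxin subunit that signals through LTBR to the alternative NF-kB route, was at 6.84, 6.84 and 6.89 with Stat3 siRNA, against 6.45, 6.29 and 6.25 with scramble, a change of 0.53 ± 0.11 (adjusted p = 0.00239). A second, dimmer LTB probe set did not show it, with a change of -0.05 (adjusted p = 0.858), and the mean of both gave 0.24 (0.066). The other 5 did not pass the test: the STAT3-activating cytokines IL6 and LIF had changes of -0.30 and -0.23, IL1A -0.24, IL1B 0.23 and TNF 0.21. IL1A, IL1B and TNF were dim in every group.

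Of the 7 genes of NF-kB subunits and IkB proteins, 1 rose and 1 fell. NFKBIA encodes IkBα, the inhibitor that NF-kB itself induces. It was at 11.74, 11.73 and 11.59 with Stat3 siRNA, against 11.13, 11.10 and 10.87 with scramble, all siRNA arrays being above all controls. The log2 change was 0.66 ± 0.094 (adjusted p = 0.000133), although a far dimmer second probe set gave -0.03 (adjusted p = 0.863). NFKBIZ, a nuclear IkB that co-activates a subset of target genes, went the other way, at 6.04, 6.22 and 6.20 with Stat3 siRNA and 6.61, 6.39 and 6.56 with scramble, a change of -0.37 ± 0.093 (adjusted p = 0.0116). Its call was lost without scramble replicate 1 (adjusted p = 0.054) with DU145 fitted alone (0.0979) and with the mean of its probe sets (0.111). The subunit genes NFKB1, NFKB2, REL and RELB had changes of 0.05, 0.18, 0.01 and 0.46 and NFKBIE, another IkB, had 0.15, none of which passed the test. RELB was nearest (adjusted p = 0.0704).

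Of 6 genes of feedback and TNF signalling, 4 rose. TNFRSF9 (4-1BB, CD137), a TNF receptor family member best known as a costimulator on T cells, had the largest rise of all 19775 genes. It was at 6.75, 7.30 and 7.24 with Stat3 siRNA, against 4.86, 5.23 and 5.23 with scramble. The lowest Stat3 siRNA array lay more than 1 unit above the highest control, and the log2 change was 1.99 ± 0.15, a rise of 3.98-fold (adjusted p = 1.57e-07). It ran from 1.87 to 2.17 when any 1 array was left out. The other two TNFRSF9 probe sets, both dimmer, rose less, by 0.34 and 0.64 (adjusted p = 0.0155 and 7.27e-04, over all probe sets), and the mean of all gave 0.99. TNFAIP3, the A20 deubiquitinase that shuts off IkB kinase signalling, was at 8.87, 8.94 and 9.66 with Stat3 siRNA, against 7.53, 7.79 and 8.60 with scramble. The ranges did not overlap but came close, since the third array was high in each group, and the change was 1.18 ± 0.35 (adjusted p = 0.0297). That call was lost without scramble replicate 1 (0.129), scramble replicate 2 (0.0937) or Stat3 siRNA replicate 3 (0.13), and with DU145 fitted alone (0.0699), as adjusted p. BIRC2 (cIAP1), a ubiquitin ligase of the TNF receptor complex, was at 10.92, 11.00 and 11.14 with Stat3 siRNA, against 10.44, 10.60 and 10.76 with scramble, a change of 0.42 ± 0.098 (adjusted p = 0.00697). Fitted with DU145 arrays alone, its adjusted p was 0.0637. TNIP1, an A20-binding inhibitor, was at 10.11, 9.67 and 9.94 with Stat3 siRNA, against 9.40, 9.51 and 9.70 with scramble, and these arrays overlapped. Its change of 0.37 ± 0.10 (adjusted p = 0.0181) did not pass without scramble replicate 1 or 2 or Stat3 siRNA replicate 1 or 3 (adjusted p = 0.0882, 0.0558, 0.0836 and 0.0557), nor with DU145 fitted alone (0.105), and its second probe set gave -0.04. TNFAIP2 and the adaptor TRAF1 had changes of -0.22 and 0.33 and did not pass the test.

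Among 6 genes of survival, stress and enzymes, 3 rose. BCL2A1, a BCL2 relative that protects from apoptosis, was at 7.5, 7.68 and 7.90 with Stat3 siRNA, against 5.55, 5.76 and 6.46 with scramble. The gap between the groups exceeded 1 unit, and the change was 1.77 ± 0.23, a rise of 3.41-fold (adjusted p = 5.29e-05). G0S2, an inhibitor of the lipase ATGL, was at 9.38, 9.40 and 9.83 with Stat3 siRNA, against 7.80, 7.93 and 8.56 with scramble, a change of 1.44 ± 0.36 (adjusted p = 0.0118). Without scramble replicate 1 or Stat3 siRNA replicate 3 the adjusted p of G0S2 was 0.0529 or 0.0513. IER3, a stress-induced regulator of cell survival, was at 11.03, 10.99 and 11.29 with Stat3 siRNA, against 10.44, 10.38 and 10.82 with scramble, a change of 0.56 ± 0.12 (adjusted p = 0.00301). CFLAR, which encodes the caspase-8 inhibitor c-FLIP, the superoxide dismutase gene SOD2 and the prostaglandin synthase gene PTGS2 had changes of -0.03, 0.25 and -0.09 and did not pass the test. CFLAR had 14 probe sets that disagreed, and their mean rose by 0.24 (adjusted p = 0.0199). Of the 3 surface and interferon-linked genes, CD83, a surface protein of activated antigen-presenting cells, fell to 7.53, 7.53 and 7.54 with Stat3 siRNA, against 7.78, 7.96 and 7.96 with scramble. Its change was -0.37 ± 0.12 (adjusted p = 0.0448). The call was lost when any array but scramble replicate 1 was left out, without the third arrays (adjusted p = 0.182), and with quantile or cyclic loess normalisation (0.0555 and 0.0503). The adhesion molecule ICAM1 and the transcription factor IRF1 had changes of -0.13 and 0.08 and did not pass the test, and a second IRF1 probe set rose by 0.47 (adjusted p = 0.00744, over all probe sets).

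**Figure D2:**
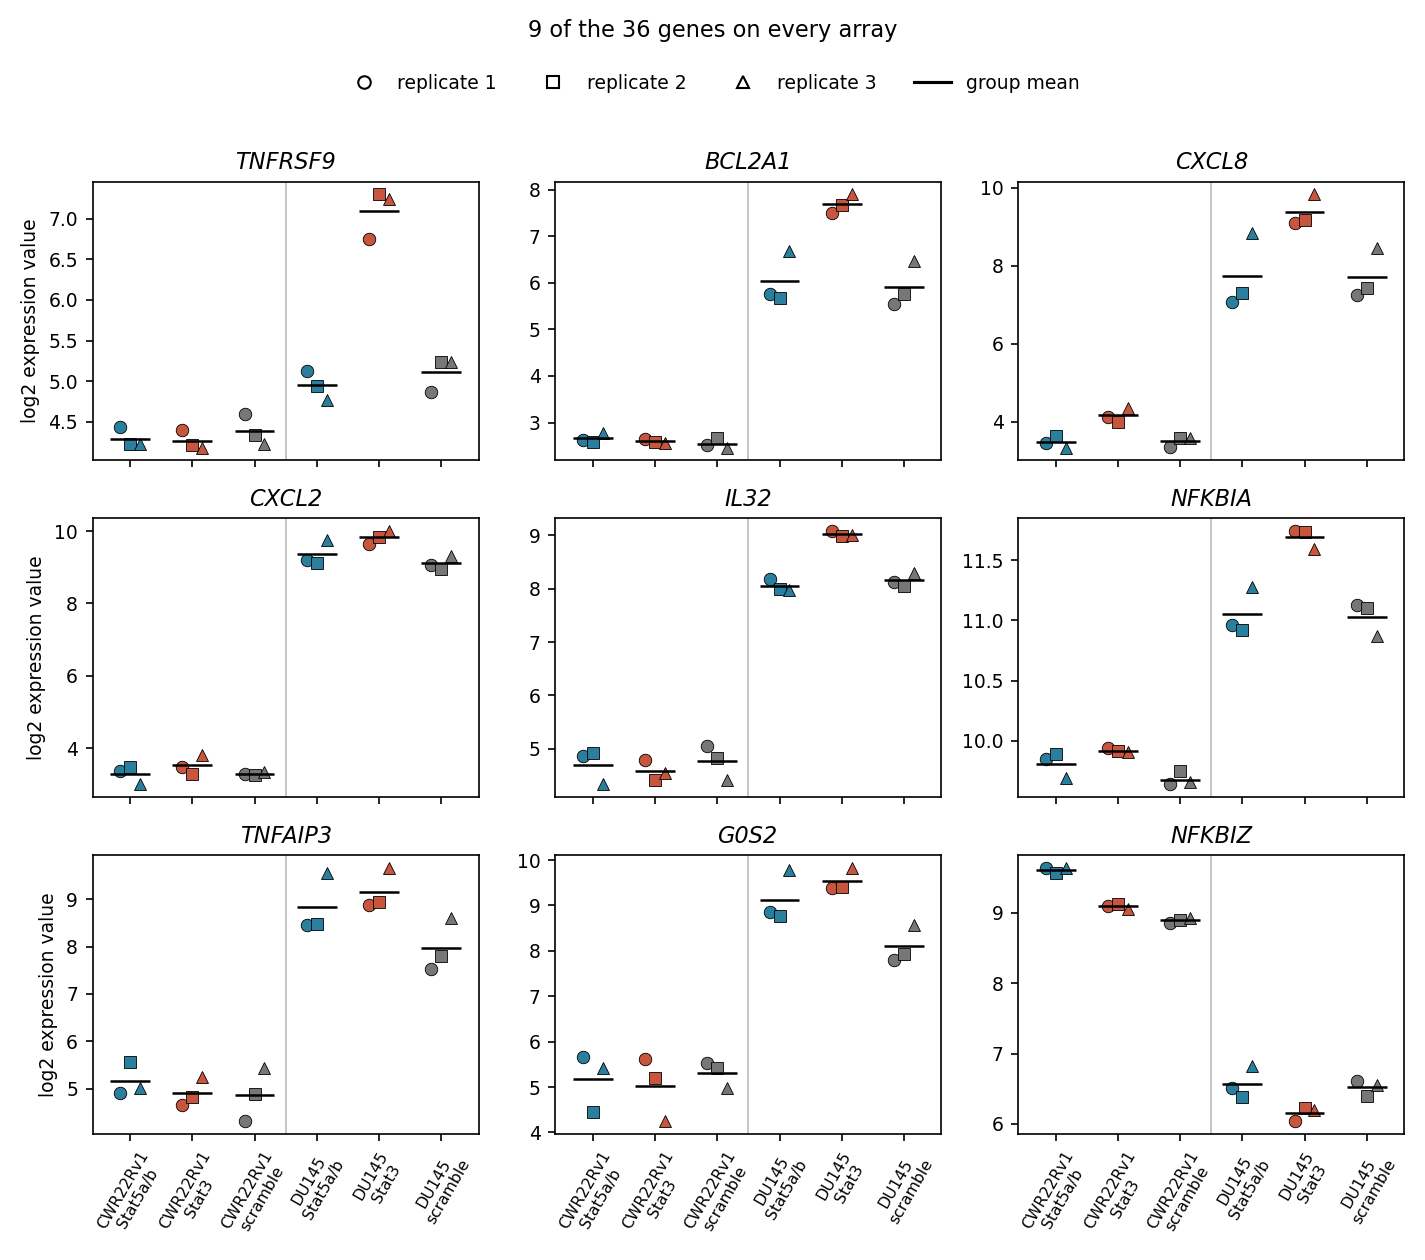
Points are log2 values of 9 of the 36 genes on every array, with horizontal bars at the means of 3 arrays; each panel holds 6 groups, CWR22Rv1 left of DU145 and Stat5a/b siRNA, Stat3 siRNA and scramble in that order. In DU145 the Stat3 siRNA points of TNFRSF9 lie at 6.75 to 7.30, above the 4.77 to 5.13 of Stat5a/b siRNA and the 4.86 to 5.23 of scramble.

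Stat5a/b siRNA raised 3 of the 36 genes in DU145 cells and lowered 2, or 13.9% called, where 24.3% of all genes were called, and the median change was 0.02. This shortfall depends on the fit: with the replicate number as a block 9 of the 36 were called (25.0%), against 26.9% of all genes. Without dim genes 6 of 28 were called (21.4%), against 44.0% of the genes left. Arrays of 9 genes did not overlap, against 34.4% of all genes. The risers were CCL20, BIRC2 and G0S2 and the fallers TNFAIP2 and LIF. The same arrays had lower levels of the epithelial markers CDH1 (log2 change -1.18), EPCAM (-0.40) and KRT19 (-0.37) and of CD14 (-0.96). Of the other leukocyte markers PTPRC, CD3E, LYZ, FCER1G and CD79A had higher group means than scramble. TYROBP had a lower one, and ITGAM was level at 5.17. The leukocyte marker sum was 257 to 326 with Stat5a/b siRNA and 287 to 342 with scramble. Of the other epithelial and prostate markers KRT18, KLK2, KLK3 and HOXB13 had higher group means than scramble, and KRT8 a lower one. The summed level of 8 epithelial and prostate markers was 15400 to 16100 with Stat5a/b siRNA and 16900 to 18000 with scramble. Their part in the result was not tested.

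CCL20 was at 3.59, 3.60 and 3.74 with Stat5a/b siRNA, against 3.31, 3.27 and 3.24 with scramble, a change of 0.37 ± 0.077 (adjusted p = 0.00229). BIRC2 was at 10.84, 10.98 and 11.23 with Stat5a/b siRNA, against 10.44, 10.60 and 10.76 with scramble, a change of 0.42 ± 0.098 (adjusted p = 0.00486). Neither pair of groups overlapped. G0S2 was at 8.86, 8.76 and 9.78 with Stat5a/b siRNA, against 7.80, 7.93 and 8.56 with scramble, a change of 1.03 ± 0.36 that just passed (adjusted p = 0.0479). It failed without the third arrays (adjusted p = 0.107) and without scramble replicate 1 or 2 or Stat5a/b siRNA replicate 1 or 3 (0.16, 0.124, 0.057 and 0.188). TNFAIP2, a TNF-induced protein of membrane protrusions, fell to 9.65, 9.70 and 9.5 with Stat5a/b siRNA, against 10.13, 10.05 and 10.22 with scramble, a change of -0.52 ± 0.11 (adjusted p = 0.0021). LIF, an interleukin-6 family cytokine, fell to 7.83, 7.84 and 8.25 with Stat5a/b siRNA, against 8.89, 8.69 and 8.59 with scramble. Its change was -0.75 ± 0.22 (adjusted p = 0.0199), lost without scramble replicate 1 or Stat5a/b siRNA replicate 1 or 2 (0.0799, 0.0701 and 0.0689). NFKB2 (-0.51, adjusted p = 0.0504), CFLAR (-0.17, 0.0504) and TNFAIP3 (0.85, 0.0907) came near the threshold, and NFKB2 and TNFAIP3 passed it without scramble replicate 2 (NFKB2, 0.0355), Stat5a/b siRNA replicate 3 (NFKB2, 0.0337) or scramble replicate 3 (TNFAIP3, 0.0284). With the replicate number as a block NFKB2, CFLAR and TNFAIP3 all passed, as did IER3. Without the third arrays of all groups 3 genes rose and 3 fell, IER3 (0.29, 0.0124) and NFKB2 (-0.57, 0.0444) being added and G0S2 lost. In that fit 16.7% of the 36 and 26.3% of all genes were called. A second NFKB2 probe set fell by 0.57 (adjusted p = 0.00779, over all probe sets). The genes with the largest rises under Stat3 siRNA had Stat5a/b changes of -0.16 (TNFRSF9), 0.11 (BCL2A1) and 0.02 (CXCL8), with 95% intervals of -0.47 to 0.15, -0.38 to 0.60 and -0.76 to 0.81. The remaining 25 genes, not called in the main fit, had changes between -0.34 (ICAM1) and 0.36 (SOD2).

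The 2 siRNA groups of DU145 share their scramble arrays, so they were also compared with each other directly. With Stat5a/b siRNA relative to Stat3 siRNA, 9 of the 36 genes were lower and 1 was higher, or 27.8% called against 22.1% of all genes (11.2% lower and 11% higher). Without dim genes 13 of 28 were called (46.4%), against 41.9% of the genes left. With the replicate number as a block 12 of the 36 were called (33.3%), against 25.2% of all genes. The 13 genes whose arrays did not overlap compare with 30.7% of all genes. Lower with Stat5a/b siRNA were TNFRSF9 (-2.15 ± 0.15, adjusted p = 3.75e-08, the largest fall of all genes), BCL2A1 (-1.66 ± 0.23), CXCL8 (-1.63 ± 0.37), IL32 (-0.98 ± 0.16), LTB (-0.77 ± 0.11) and NFKBIA (-0.64 ± 0.094). NFKB2, whose product p100 is the precursor of the alternative NF-kB route, was at 7.25, 7.07 and 7.49 with Stat5a/b siRNA and at 7.98, 7.57 and 8.34 with Stat3 siRNA, a difference of -0.69 ± 0.18 (adjusted p = 0.0106) that was lost without Stat3 siRNA replicate 3 (0.0546) or Stat5a/b siRNA replicate 2 (0.0513). CCL2, dim, was at 3.29, 3.36 and 3.12 with Stat5a/b siRNA and at 3.68, 3.72 and 3.60 with Stat3 siRNA, a difference of -0.41 ± 0.095 (adjusted p = 0.00539). TNIP1 differed by -0.35 ± 0.10 (adjusted p = 0.0187), lost without Stat3 siRNA replicate 1 or 3 or Stat5a/b siRNA replicate 1 or 2 (0.0986, 0.0505, 0.0654 and 0.0618). NFKBIZ was the gene higher with Stat5a/b siRNA, at 6.51, 6.38 and 6.82 against 6.04, 6.22 and 6.20 with Stat3 siRNA, a difference of 0.42 ± 0.093 (adjusted p = 0.00355). A second NFKBIZ probe set gave -0.21 (adjusted p = 0.451, over all probe sets), and the mean of both gave 0.10 (0.568). Without the third arrays 11 genes were lower and 1 was higher, or 33.3% called against 24.7% of all genes. CCL20, BIRC2 and G0S2, called under both siRNAs, differed by -0.06, 0.00 and -0.40 between them, with 95% intervals of -0.23 to 0.10, -0.21 to 0.20 and -1.17 to 0.37.

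In CWR22Rv1 cells few of the 36 genes were called with either siRNA. With Stat3 siRNA 1 rose and none fell, or 2.78% called against 4.77% of all genes (2.75% higher and 2.02% lower). Beside the 0 falls by limma, 1 gene, IL6, had a lower value at an unadjusted p under 0.05 (-0.33, adjusted p = 0.172), and with array weights 1 gene fell. Arrays of 8 genes did not overlap, against 32.3% of all genes. The riser was PTGS2 (cyclooxygenase-2), at 6.55, 6.45 and 6.70 with Stat3 siRNA, against 6.13, 6.08 and 6.16 with scramble, a change of 0.44 ± 0.11 (adjusted p = 0.0291). The groups were separate, but the call was lost when any array but Stat3 siRNA replicate 2 was left out (adjusted p of 0.079 to 0.137) or with quantile normalisation (0.054), and a second PTGS2 probe set had 0.34 (0.282, over all probe sets). In the same arrays the fibroblast markers LUM and COL3A1 fell by 0.66 and 0.47. The summed level of 8 fibroblast markers, mostly LUM, was 334 to 388 with Stat3 siRNA and 457 to 522 with scramble, and its part in the result was not tested. CXCL8 was at 4.13, 3.99 and 4.35 with Stat3 siRNA, against 3.34, 3.59 and 3.59 with scramble, without overlap. Its change was 0.65 ± 0.37 (adjusted p = 0.412), and a second CXCL8 probe set had 0.08 (0.969, over all probe sets). With the CWR22Rv1 arrays fitted alone, whose spread was smaller, 4 genes rose: PTGS2, CXCL8 (adjusted p = 0.00839), NFKBIA (0.24, 0.036) and NFKBIZ (0.20, 0.0253). In that fit 10.4% of all genes were called.

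With Stat5a/b siRNA in CWR22Rv1 cells 1 of the 36 genes rose and 1 fell, or 5.56% called against 6.46% of all genes (3.16% higher and 3.3% lower), and arrays of 6 genes did not overlap, against 31.1% of all genes. NFKBIZ rose to 9.63, 9.56 and 9.64 with Stat5a/b siRNA, against 8.86, 8.90 and 8.92 with scramble. Both groups were tight and lay far apart, and the change was 0.71 ± 0.093, a rise of 1.64-fold (adjusted p = 0.000147). It was called in each of the 14 alternatives that measured it, at 0.60 to 0.74. A second NFKBIZ probe set had 0.49 (adjusted p = 0.15, over all probe sets). CFLAR fell to 7.80, 7.81 and 7.96 with Stat5a/b siRNA, against 8.12, 8.05 and 8.09 with scramble, a change of -0.23 ± 0.062 (adjusted p = 0.0305). Its call was lost when any array but Stat5a/b siRNA replicate 3 was left out, and the mean of its probe sets had -0.05. Another, dimmer CFLAR probe set went the other way, with a rise of 0.60 (adjusted p = 0.0145, over all probe sets). Set against Stat3 siRNA, with which it shares the scramble arrays, Stat5a/b siRNA gave higher NFKBIZ (0.52 ± 0.093, adjusted p = 0.00152) and lower CFLAR (-0.20 ± 0.062, 0.0468). These 2 genes are 5.56% of the 36, where 10.8% of all genes were called (4.7% higher and 6.05% lower), and 10 genes had arrays that did not overlap, against 36.8% of all genes. The CFLAR difference was lost without any array but Stat5a/b siRNA replicate 3 (adjusted p of 0.0661 to 0.209). The dimmer CFLAR probe set that rose gave 0.60 here (adjusted p = 0.0097, over all probe sets).

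Over the 4 comparisons of an siRNA with scramble, 17 of the 36 genes (47.2%) were called in none, 15 (41.7%) in 1 and 4 (11.1%) in 2. Of all genes, 65.5% were called in none, 21.7% in 1, 9.54% in 2, 2.56% in 3 and 0.698% in 4. The 4 were CCL20, BIRC2 and G0S2, which rose with both siRNAs in DU145, and NFKBIZ, which fell with Stat3 siRNA in DU145 and rose with Stat5a/b siRNA in CWR22Rv1. The 2 comparisons within a line share their controls. The genes called in none were CXCL1, CXCL3, CXCL5, CCL2, NFKBIE, NFKB1, NFKB2, REL, RELB, ICAM1, IL6, IL1A, IL1B, TNF, TRAF1, SOD2 and IRF1, of which 7 were dim in every group. Of the 19 called in at least 1, only CCL20 was dim. The standard error pools the spread of all 6 groups: the median SD over the 36 genes was 0.114 to 0.133 in the CWR22Rv1 groups and 0.164 to 0.2 in the DU145 groups. Over all genes it was 0.0724 to 0.0824 in CWR22Rv1 and 0.112 to 0.126 in DU145. By these medians the pooled spread is too small for DU145 and too large for CWR22Rv1, which widens the contrast in counts between the lines. With each line fitted alone, Stat3 siRNA gave 27.8% of the 36 called in DU145 (7.83% of all genes) and 11.1% in CWR22Rv1 (10.4% of all genes).

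**Figure D3:**
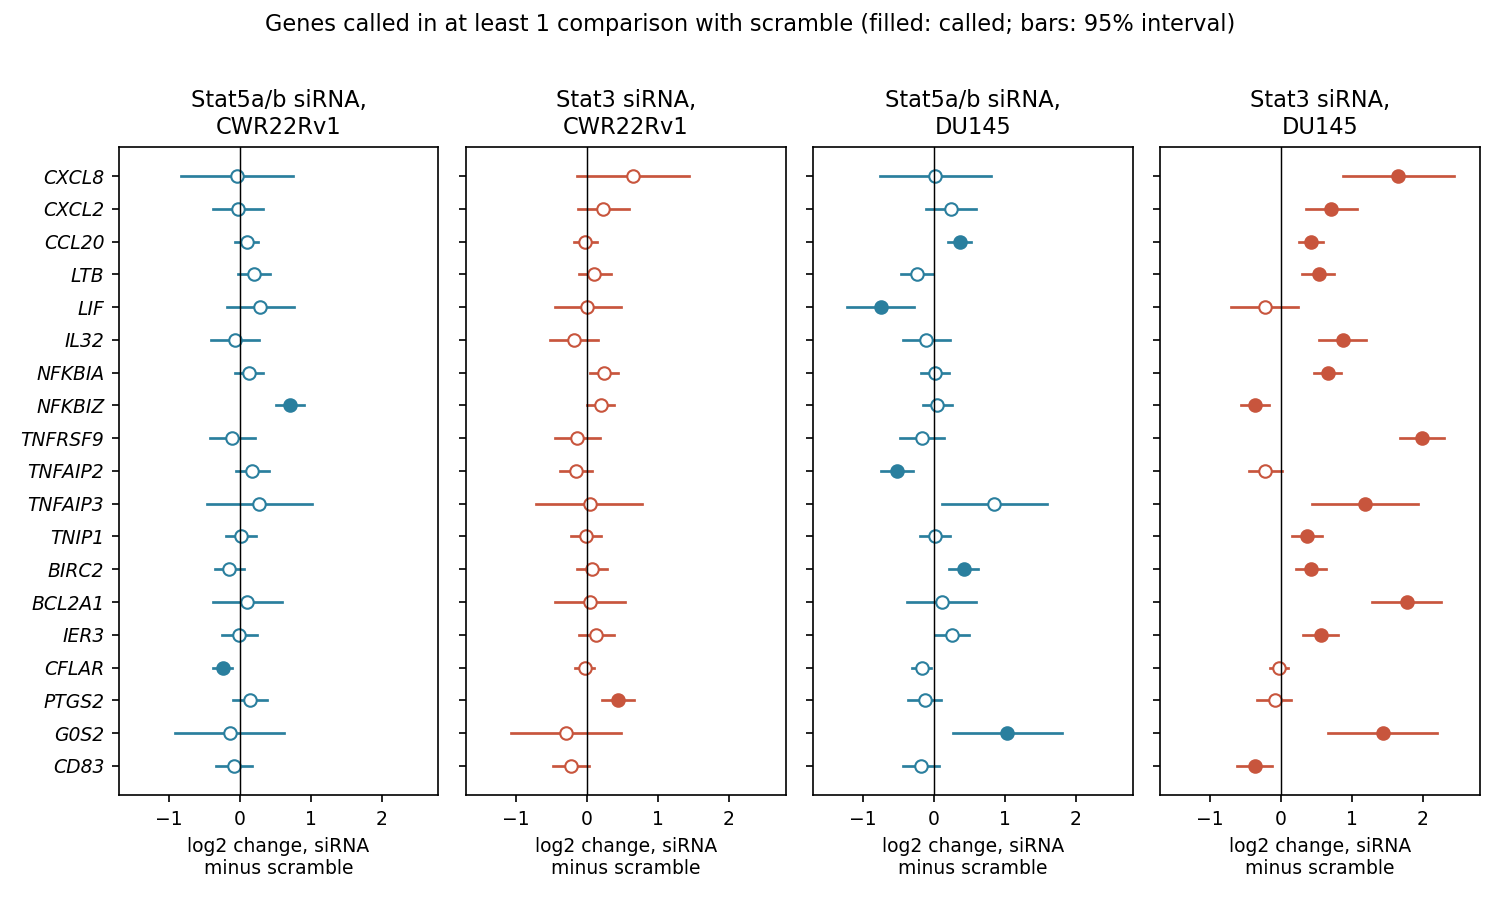
Log2 changes of an siRNA minus scramble (horizontal axis) for the 19 genes called in at least 1 of 4 comparisons (1 panel each, siRNA and line in the title); filled points passed the test and bars are 95% intervals of the fit. TNFRSF9, BCL2A1, CXCL8 and G0S2 reach 1.99, 1.77, 1.65 and 1.44 with Stat3 siRNA in DU145, and in CWR22Rv1 the called changes are NFKBIZ (0.71), PTGS2 (0.44) and CFLAR (-0.23).

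Whether an siRNA acted differently in the lines was tested as the difference of its change, CWR22Rv1 minus DU145. For Stat3 siRNA 4 of the 36 genes had a lower change in CWR22Rv1 and 1 a higher one, or 13.9% called against 3% of all genes (1.82% higher and 1.18% lower). Without dim genes 6 of 28 were called (21.4%), against 8.72% of the genes left. TNFRSF9 had a change of -0.13 in CWR22Rv1 and 1.99 in DU145, a difference of -2.12 ± 0.21 (adjusted p = 0.000113), the lowest of all genes. In CWR22Rv1 its arrays were at 4.40, 4.21 and 4.18 with Stat3 siRNA and 4.60, 4.34 and 4.23 with scramble, which overlap. BCL2A1 had 0.05 in CWR22Rv1 and 1.77 in DU145, a difference of -1.72 ± 0.32 (adjusted p = 0.0104). It was near the bottom of the measured range in CWR22Rv1, at 2.65, 2.59 and 2.57 with Stat3 siRNA and 2.52, 2.67 and 2.46 with scramble. IL32 had -0.18 in CWR22Rv1 and 0.87 in DU145, a difference of -1.05 ± 0.22 (adjusted p = 0.0195). CCL20 differed by -0.44 ± 0.11 (adjusted p = 0.0386) and NFKBIZ by 0.57 ± 0.13 (0.0288). For CXCL8 the changes of 0.65 in CWR22Rv1 and 1.65 in DU145 differed by -1.0 ± 0.52, which did not pass (adjusted p = 0.363), nor did those of G0S2 (-1.72 ± 0.51, 0.0843) or TNFAIP3 (-1.15 ± 0.50, 0.25). The CCL20 call was lost without any of the 12 arrays but DU145 Stat3 siRNA replicate 3 and CWR22Rv1 scramble replicate 1 (adjusted p of 0.0528 to 0.098). The NFKBIZ call was lost without any array but those of DU145 Stat3 siRNA and DU145 scramble replicate 2 (0.0519 to 0.071). The IL32 call was lost without CWR22Rv1 scramble replicate 1 or 2 or CWR22Rv1 Stat3 siRNA replicate 2 (0.0506, 0.0523 and 0.0541). With the brighter of the TNFRSF9 probe sets of the specific type the difference was -0.43 (0.0627). The dimmer one gave -0.56 (adjusted p = 0.095, over all probe sets). Without the third DU145 arrays 7 genes had a lower change in CWR22Rv1 and 1 a higher one, CXCL8 (-1.14, adjusted p = 0.00439), IER3 (-0.47, 0.0181) and NFKBIA (-0.38, 0.0371) being added. In that fit 22.2% of the 36 and 4.08% of all genes were called.

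For Stat5a/b siRNA 3 of the 36 genes had a higher change in CWR22Rv1 and 1 a lower one, or 11.1% called against 11.9% of all genes (6.75% higher and 5.17% lower). LIF had a change of 0.29 in CWR22Rv1 and -0.75 in DU145, a difference of 1.04 ± 0.31 (adjusted p = 0.039). TNFAIP2 had 0.18 in CWR22Rv1 and -0.52 in DU145, a difference of 0.70 ± 0.15 (adjusted p = 0.00751), and NFKBIZ had 0.71 and 0.05 in the same order, a difference of 0.66 ± 0.13 (0.00405). BIRC2 had -0.15 in CWR22Rv1 and 0.42 in DU145, a difference of -0.56 ± 0.14 (adjusted p = 0.0143). TNFAIP2 was at 5.95, 5.98 and 6.18 in CWR22Rv1 with Stat5a/b siRNA and at 5.91, 5.83 and 5.84 with scramble, and LIF at 4.52, 5.11 and 4.95 with Stat5a/b siRNA and 4.38, 4.36 and 4.97 with scramble. The LIF arrays overlapped there and the TNFAIP2 arrays did not. BIRC2 was at 10.07, 9.94 and 9.97 in CWR22Rv1 with Stat5a/b siRNA and at 10.24, 10.08 and 10.09 with scramble, the siRNA arrays being just below all controls. The LIF call was lost without any of the 12 arrays but replicate 3 of both DU145 groups, CWR22Rv1 scramble replicate 3 and CWR22Rv1 Stat5a/b siRNA replicate 1 (adjusted p of 0.0645 to 0.101), and the TNFAIP2 call with the mean of its probe sets (0.52, 0.0889). Without the third DU145 arrays 5 genes had a higher change in CWR22Rv1 and 1 a lower one, or 16.7% called against 15.3% of all genes.

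The lines themselves differed in most of these genes. Between scramble arrays, 29 of the 36 genes were lower and 3 were higher in CWR22Rv1 than in DU145, or 88.9% called, where 56.9% of all genes were called (27% lower and 30% higher). Without dim genes 28 of 28 were called, against 82.8% of the genes left. The arrays of the lines did not overlap for 34 of the 36 genes, against 63.5% of all genes. The median difference was -1.39, against 0.033 over all genes. The lowest differences were those of CXCL2, CXCL5, TNFAIP2, CXCL8 and LIF. CXCL2 was at 3.29, 3.27 and 3.34 in CWR22Rv1 and at 9.07, 8.95 and 9.31 in DU145 (-5.81 ± 0.17, adjusted p = 1.18e-14), and CXCL5 (-5.07 ± 0.26), TNFAIP2 (-4.28), CXCL8 (-4.21 ± 0.37) and LIF (-4.15 ± 0.22) followed. These sizes rest on the probe sets used: other sets gave -0.94 and -0.07 for CXCL2, -3.11 and -0.49 for CXCL5, -2.43 for CXCL8 and -0.71 for TNFAIP2. How far the CWR22Rv1 levels of these genes lie above background is unknown. ICAM1 (-3.78, other sets -1.82 and -4.87), IL32 (-3.39), BCL2A1 (-3.37) and TNFAIP3 (-3.09) were also more than 3 units lower in CWR22Rv1. The subunit genes NFKB1, NFKB2, REL and RELB were lower by less, at -1.45, -0.57, -0.56 and -0.89, and NFKBIA was at 9.64, 9.75 and 9.66 in CWR22Rv1 and 11.13, 11.10 and 10.87 in DU145 (-1.35 ± 0.094). Other sets gave -0.26 and 0.24 for NFKB2, 0.22, -0.55, -0.72 and -0.09 for REL and -0.14 for NFKBIA. The call was lost in 4 of 15 alternatives for NFKB2 and in 1 of 15 for NFKBIA.

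Higher in CWR22Rv1 were PTGS2, NFKBIZ and SOD2. PTGS2 was at 6.13, 6.08 and 6.16 in CWR22Rv1 and at 2.90, 3.04 and 2.76 in DU145 (3.22 ± 0.11). NFKBIZ was at 8.86, 8.90 and 8.92 in CWR22Rv1 and at 6.61, 6.39 and 6.56 in DU145 (2.37 ± 0.093), and SOD2 at 8.71, 8.36 and 8.60 in CWR22Rv1 and 7.33, 7.74 and 7.32 in DU145 (1.09 ± 0.20). These sizes also rest on the probe sets used: a second set gave 1.24 for PTGS2 and 0.88 for NFKBIZ, and SOD2 had only 1 set. CCL2, IL1B, TNF and TRAF1, all dim in every group, were the 4 not called. PTGS2 and NFKBIZ, the genes raised by an siRNA in CWR22Rv1, were 2 of the 3 that this line expressed above DU145. The 13 raised by Stat3 siRNA in DU145 were all lower in CWR22Rv1, but so were 29 of all 36 genes. A link between control level and response was not tested. The STAT3 mRNA was itself lower in CWR22Rv1 (-3.62 ± 0.09, adjusted p = 1.99e-15).

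**Figure D4:**
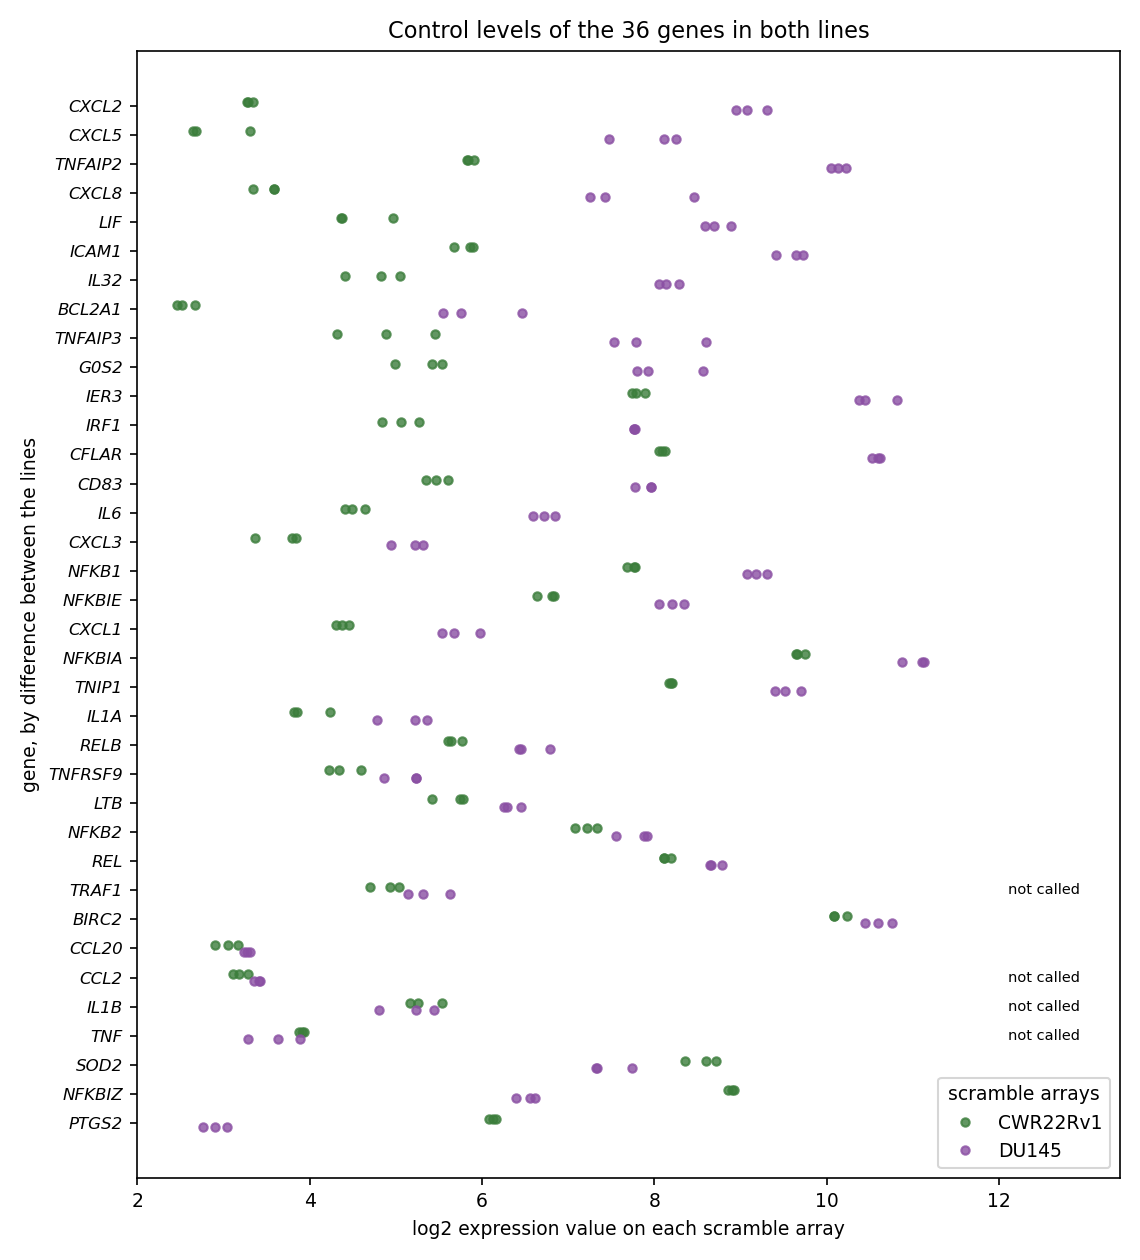
Log2 values of the 36 genes (rows, ordered by the difference between the lines) on the 3 scramble arrays of each line. CWR22Rv1 and DU145 are apart in nearly all rows, from CXCL2 (log2 difference -5.81, top) to PTGS2 (3.22, bottom).

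Other genes of the pathway, taken from lists by role, changed in both directions. Of 21 measured receptors and adaptors, 4 rose and 3 fell with Stat3 siRNA in DU145 and 3 rose and 5 fell with Stat5a/b siRNA (33.3% and 38.1% called, against 15.8% and 24.3% of all genes). TNFRSF11A (RANK) rose by 1.07 ± 0.083, the interleukin-1 receptor adaptor kinase gene IRAK2 by 0.99 ± 0.16 and the TRAIL receptor gene TNFRSF10B by 0.75 ± 0.067 with Stat3 siRNA, while the interleukin-1 receptor gene IL1R1 fell by 0.48 ± 0.075. Of 13 kinase and subunit genes, 3 rose and 3 fell with each siRNA in DU145 (46.2% called, against 15.8% and 24.3% of all genes). TAB2, which links TRAF6 to the kinase TAK1, rose in all 4 comparisons, by 0.66 and 0.51 in DU145 and by 0.26 and 0.34 in CWR22Rv1 (Stat5a/b siRNA, then Stat3 siRNA, each ± 0.07). TAB3, its relative, rose by 0.37 and the subunit gene RELA by 0.41 with Stat3 siRNA in DU145. With Stat5a/b siRNA in DU145, MAP3K14 (NIK), the kinase of the alternative route, fell by 0.49 and IKBKB, which encodes IKKβ, by 0.37. By DU145 group means the other siRNA often went the same way. With Stat5a/b siRNA RELA was at 9.18 (scramble 8.83), TNFRSF10B at 10.33 (10.04), IRAK2 at 8 (7.87) and IL1R1 at 7.75 (8.14). TAB3 was near scramble, at 8.38 (8.34), and TNFRSF11A was below it, at 6.13 (6.26). With Stat3 siRNA MAP3K14 was at 8.65 (8.98) and IKBKB at 7.89 (8.11).

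Of 12 measured inhibitors, 5 rose and 0 fell with Stat3 siRNA in DU145, and 6 rose and 3 fell with Stat5a/b siRNA (41.7% and 75% called). Of all genes, 15.8% were called with Stat3 siRNA in DU145 and 24.3% with Stat5a/b siRNA. CYLD, a deubiquitinase that restrains NF-kB, rose in all 4 comparisons, by 0.67 and 1.33 in DU145 and by 0.46 and 0.55 in CWR22Rv1 (Stat5a/b siRNA, then Stat3 siRNA, each ± 0.08). The 2 comparisons within each line share their controls. Of 29 other chemokines, cytokines and receptors, 18 of which were dim, 3 rose and 3 fell with Stat3 siRNA in DU145 and 3 rose and 2 fell with Stat5a/b siRNA (20.7% and 17.2% called). The latter share was below the 24.3% of all genes, and the former compares with 15.8%. IL6R, the interleukin-6 receptor, rose by 0.78 and 0.82 in DU145 (Stat5a/b siRNA, then Stat3 siRNA) and by 0.89 with Stat5a/b siRNA in CWR22Rv1, each ± 0.068. The LIF receptor gene LIFR fell by 1.15 ± 0.093 with Stat3 siRNA in DU145 and by 0.56 ± 0.093 with Stat3 siRNA in CWR22Rv1. TNFSF9, the ligand of TNFRSF9, fell by 0.59 ± 0.11 with Stat3 siRNA in DU145, the comparison in which its receptor had the largest rise. In CWR22Rv1 these 4 lists of 75 measured genes held 4 called genes with Stat3 siRNA (5.33%, against 4.77% of all genes) and 5 with Stat5a/b siRNA (6.67%, against 6.46%).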

How the data were processed

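Expression was measured on 18 one-colour Affymetrix arrays, 3 in each of 6 groups. The authors deposited log2 values, made with RMA, which corrects background, normalises quantiles and summarises probes, per the submitters' processing notes, which also name limma. Scanner files and detection calls were not used here, and no column of another series was found (0 columns left out). The number of arrays limits the precision.

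Of 54675 probe sets, 41091 had 1 gene symbol in the platform annotation, 1801 had several and 11721 none, and 62 were controls. Each of 19775 genes was represented by whichever of its single-symbol probe sets had the highest mean over all arrays. A model with 1 mean per group was fitted to all 18 arrays with limma 3.58.1 in R 4.3.3, and contrasts gave log2 changes with standard errors that pool the spread of all groups. Within DU145, deviations from the group means correlated at 0.2, 0.16 and 0.33 between Stat3 siRNA and scramble arrays of the same replicate number, so these numbers were taken to pair the arrays. The labels do not state a pairing, and the main fit had no replicate block. Counts with the block are given beside the DU145 results of both siRNAs. Calls are two-sided at an adjusted p (Benjamini-Hochberg over all genes) under 0.05. The fit was tested on simulated data. Alternatives were other scalings, a filter on dim genes, other choices of probe set, each line alone, the replicate number as a block, array weights, another moderation, each array left out and, chosen after seeing the data, replicate 3 of every DU145 group left out. A gene is called dim where its highest group mean is under 6.37.

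The 36 genes, the other lists, their roles and the rule on what is shown were chosen with earlier results of these data known. Values on every array are given for genes called in a comparison. Of other lists, up to 4 called genes with the smallest adjusted p in a comparison are named. Promoter sequences are those of RefSeq, assembly GRCh38.p14.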

Additional observations from a re-analysis of the deposited data

Results flagged for a closer look

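Differences of an siRNA's change between the lines passed the test for 9 results, and each is given as CWR22Rv1 minus DU145 with its limma adjusted p. For Stat3 siRNA these were TNFRSF9 (-2.12, adjusted p = 0.000113), BCL2A1 (-1.72, 0.0104), IL32 (-1.05, 0.0195), CCL20 (-0.44, 0.0386) and NFKBIZ (0.57, 0.0288). In DU145 all 3 Stat3 siRNA arrays lay above all 3 scramble arrays for the first 4 genes and below them for NFKBIZ, and in CWR22Rv1 all 3 lay above scramble for NFKBIZ while the arrays of the first 4 genes overlapped.

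For Stat5a/b siRNA they were LIF (1.04, adjusted p = 0.039), TNFAIP2 (0.70, 0.00751), NFKBIZ (0.66, 0.00405) and BIRC2 (-0.56, 0.0143). In DU145 all 3 Stat5a/b siRNA arrays lay below scramble for LIF and TNFAIP2 and above it for BIRC2, and those of NFKBIZ overlapped. In CWR22Rv1 all 3 lay above scramble for TNFAIP2 and NFKBIZ and below it for BIRC2, and those of LIF overlapped.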

How the results depend on the processing

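Counts are genes of the 36 called higher and lower. Without probe sets of the less specific types, which left 26 of the 36 genes measured, Stat3 siRNA in DU145 gave 4 higher and 0 lower (15.4% of 26, against 13.2% of all genes), Stat5a/b siRNA in CWR22Rv1 0 and 0, Stat5a/b against Stat3 siRNA 0 and 4 in DU145 and 0 and 0 in CWR22Rv1. The line difference was then 0 higher and 1 lower for Stat3 siRNA and 1 higher for Stat5a/b siRNA, and 18 genes were lower in CWR22Rv1 controls. Signs turned there for LTB (-0.05), NFKBIA (-0.03) and TNIP1 (-0.04) with Stat3 siRNA in DU145, for CXCL5 (-0.28) with Stat5a/b siRNA in DU145, and for LTB (0.04) and NFKBIA (0.05) between the siRNAs in DU145, each on another probe set of the gene. With the mean of all probe sets CFLAR turned to 0.24 with Stat3 siRNA in DU145, where 1 gene was lower. That setting gave 0 lower with Stat5a/b siRNA in CWR22Rv1, 0 higher between the siRNAs in DU145 and 0 higher for the line difference of Stat3 siRNA.

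Quantile normalisation gave 1 lower with Stat3 siRNA in DU145, 0 higher with Stat3 siRNA in CWR22Rv1 and 0 lower between the siRNAs in CWR22Rv1. Cyclic loess gave 1 lower with Stat3 siRNA in DU145, 0 lower with Stat5a/b siRNA in CWR22Rv1, and 2 higher and 0 lower between the siRNAs in CWR22Rv1. These scalings moved the median change of all genes by at most 0.022. Without dim genes, Stat5a/b siRNA in DU145 gave 4 lower, the siRNAs in CWR22Rv1 2 higher and the line difference of Stat3 siRNA 2 higher. DU145 alone gave 10 called with Stat3 siRNA (27.8% of the 36, against 7.83% of all genes), 1 of them lower. CWR22Rv1 alone gave 4 higher with Stat3 siRNA and 4 higher and 3 lower between the siRNAs. Array weights gave 1 lower with Stat3 siRNA in DU145, 3 higher and 1 lower with Stat3 siRNA in CWR22Rv1, 2 higher and 4 lower between the siRNAs in CWR22Rv1, and 2 higher for the line difference of Stat3 siRNA. Moderation with a trend gave, for Stat5a/b siRNA in DU145, 4 lower and 2 higher between the siRNAs in CWR22Rv1. Leaving out replicate 3 of every DU145 group, chosen after seeing the data, gave 7 lower for the line difference of Stat3 siRNA and 5 higher for that of Stat5a/b siRNA. With both directions counted, 22.2% and 16.7% of the 36 were then called, against 4.08% and 15.3% of all genes. The cause of these shifts was not tested.

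Outside Stat3 siRNA and scramble in DU145 a pairing by replicate number was less clear. Deviations of arrays with the same number correlated at 0.01 to 0.17 between the other DU145 groups and at -0.07 to 0.14 in CWR22Rv1. Arrays correlated best with their own number in 15 of 18 cases in DU145 and 8 of 18 in CWR22Rv1. In DU145 the numbers may therefore pair the Stat5a/b siRNA arrays as well. With the number as a replicate block, Stat3 siRNA gave 15 higher and 2 lower in DU145 and 2 higher in CWR22Rv1, Stat5a/b siRNA 5 higher and 4 lower in DU145, where 25.0% of the 36 and 26.9% of all genes were called (IER3, NFKB2, TNFAIP3 and CFLAR added, adjusted p = 0.00775, 0.00138, 0.00472 and 0.0459), and 1 higher and 2 lower in CWR22Rv1, the siRNAs 4 lower in CWR22Rv1 and 11 lower in DU145, and the line difference of Stat3 siRNA 8 lower.

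Leaving out 1 array at a time gave, for Stat3 siRNA in DU145, 10 to 15 higher and 1 to 1 lower, and for Stat5a/b siRNA in DU145 2 to 5 higher and 1 to 3 lower. In CWR22Rv1 it gave 0 to 1 higher with Stat3 siRNA and 0 to 1 lower with Stat5a/b siRNA. Between the siRNAs it gave 7 to 12 lower in DU145 and 0 to 1 lower in CWR22Rv1. The line difference had 0 to 2 higher and 2 to 4 lower for Stat3 siRNA and 2 to 3 higher for Stat5a/b siRNA, and the controls 3 to 4 higher and 28 to 29 lower.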
